A study of Mus musculus with 4 samples.

Results

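The genes described here are those of cholesterol synthesis and sterol handling, taken by name from a list of 33 symbols. Of these, 32 had a row among the 36161 gene rows kept from the count tables; the remaining symbol, Sc4mol, is an older name of Msmo1. They comprise 9 enzymes grouped from acetyl-CoA to squalene and 10 enzymes of the sterol ring steps. The 9 include Ggps1, whose product geranylgeranyl diphosphate lies on a side branch and is not a precursor of squalene. The others are 5 genes of the SREBP control system and 8 genes of sterol uptake, transport, efflux and storage. The study profiled single cells dissociated from the cortex of C57BL/6 mouse embryos at E16.5 (embryonic day 16.5), with 2 libraries of genotype HET and 2 of genotype COP1 KO. HET is not defined in the labels, the knockout's titles abbreviate it as CKO without naming a Cre driver or the deleted part, and no litter or batch is given. Papain was used for dissociation, and libraries of the 10x Chromium v2 chemistry, which reads 3′ ends, took up a single HiSeq4000 lane each. The labels call the 4 samples mice, so the library stood for 1 mouse.

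Cells build cholesterol from acetyl-CoA through mevalonate, the isoprenoid diphosphates, squalene and a series of sterols that begins with lanosterol. When sterol in the endoplasmic reticulum is low, SCAP carries the precursors of the SREBP transcription factors, encoded by Srebf1 and Srebf2, to the Golgi for cleavage, and the INSIG proteins hold them back when sterol is plentiful. The blood-brain barrier keeps lipoprotein cholesterol out of the brain, so that neural cells depend on local synthesis and on transfer between cells.

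After filtering, 18786 cells remained, between 4317 and 5195 per library, with median depths from 4505 counts per cell in COP1 KO replicate 1 to 5477 in HET replicate 2. Total deposited counts lay between 28049007 and 28988265. Barcode sequences that occurred in more than 1 library numbered 172, or 0.924% of those kept. Clusters made without the 32 genes were named "-like" from marker lists. Excitatory-neuron-like cells, the defining class of the labelled tissue, numbered 8610, and the dissections also held 1711 striatal-projection-neuron-like and 593 ganglionic-eminence-progenitor-like cells, so they were not cortex alone. The oligodendrocyte-precursor-like class had 35 and 37 cells in HET against 116 and 139 in COP1 KO. Clusters whose best marker list did not pass every naming rule were left unnamed. The largest was cluster 0 with 1596 cells, whose best score was for excitatory neurons (1.05) but whose 10 leading genes held none of that list and 1 marker of another type. Cluster 20, with its best score for intermediate progenitors (1.72), was set aside by the same rule. The gene of the knockout, listed as Rfwd2 (RefSeq symbol Cop1, chromosome 1, 159232156 to 159354872 in GRCm38.p6), was at 32.0 and 39.1 CPM (counts of a gene per 1000000 counts of the library or class) in HET and 30.6 and 29.7 CPM in COP1 KO. Because the deleted part is not given and the reads come from 3′ ends, this level does not check the labels.

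The promoters of the enzymes share sequence features that are shown first. RefSeq promoter windows on GRCm38.p6, from 250 bases before to 50 bases after a transcription start, were matched for 25 of the 32 genes. The 7 without a window were Fdps, Fdft1, Sqle, Stard4, Npc1, Abcg1 and Lipg. The CCAAT box, bound by NF-Y, a factor that works beside SREBP at many sterol genes, was searched as CCAAT on both strands and so also appears as ATTGG. It occurred in 21 of these 25 genes (84%) and in 15 of 16 enzyme genes (93.8%), against 41.1% of all genes with a window and 42.7% of the genes tested here. The sterol regulatory element in the form TCACNCCAC was found in 1 of 25 genes (4%), against 1.44% of all genes, and the E-box CACGTG in 6 of 25 (24%), against 8.09% of all genes and 11.3% of the genes tested. Neither of these motifs overlaps CCAAT in its letters. Stretches from 180 bases before to 20 bases after a start are printed for 6 genes that differ in these motifs, each 5′ to 3′ on the gene's own strand, with the motifs in capitals.

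Hmgcs1, chr13:119690171-119690370, plus strand: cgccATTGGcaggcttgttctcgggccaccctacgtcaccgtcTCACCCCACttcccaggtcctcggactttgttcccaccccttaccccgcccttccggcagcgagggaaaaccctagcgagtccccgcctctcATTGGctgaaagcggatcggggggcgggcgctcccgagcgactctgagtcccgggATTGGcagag
Mvk, chr5:114444089-114444288, plus strand: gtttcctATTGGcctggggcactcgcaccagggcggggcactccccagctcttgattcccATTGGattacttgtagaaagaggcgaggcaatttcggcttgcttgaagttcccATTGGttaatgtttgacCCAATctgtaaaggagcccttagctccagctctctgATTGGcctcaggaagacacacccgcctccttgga
Msmo1, chr8:64733559-64733758, minus strand: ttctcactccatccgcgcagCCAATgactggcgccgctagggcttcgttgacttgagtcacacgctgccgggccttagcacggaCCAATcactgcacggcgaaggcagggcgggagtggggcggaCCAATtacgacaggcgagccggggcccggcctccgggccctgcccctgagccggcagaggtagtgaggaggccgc
Srebf1, chr11:60210452-60210651, minus strand: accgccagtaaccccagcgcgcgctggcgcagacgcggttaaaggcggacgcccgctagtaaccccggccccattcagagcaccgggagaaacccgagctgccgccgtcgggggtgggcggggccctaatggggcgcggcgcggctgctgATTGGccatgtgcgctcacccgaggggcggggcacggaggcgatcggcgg
Insig1, chr5:28071232-28071431, plus strand: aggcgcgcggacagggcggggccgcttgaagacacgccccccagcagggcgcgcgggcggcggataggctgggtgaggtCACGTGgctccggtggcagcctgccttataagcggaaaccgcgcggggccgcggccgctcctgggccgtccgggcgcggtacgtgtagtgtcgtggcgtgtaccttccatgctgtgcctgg
Abca1, chr4:53159876-53160075, minus strand: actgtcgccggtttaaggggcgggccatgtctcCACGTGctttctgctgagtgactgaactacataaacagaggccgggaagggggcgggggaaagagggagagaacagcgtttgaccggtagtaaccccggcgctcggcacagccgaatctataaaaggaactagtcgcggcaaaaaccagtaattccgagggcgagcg

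Hmgcs1 has the TCACNCCAC form 137 bases before its start, as well as CCAAT boxes on the reverse strand. In the stretch of Mvk, the CCAAT box occurs 5 times across both strands, and in that of Msmo1 3 times on the forward strand. The Srebf1 stretch belongs to the start with an ATTGG close to it, 1 of 3 starts that the RefSeq table has for this gene. Insig1 and Abca1 have the E-box and no CCAAT in these letters. A motif match describes the sequence only.

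The level of these genes differed by cell class, and most of the enzymes were at their highest in glial progenitors. Among the 8 classes with at least 20 cells in every library, 15 of the 32 genes had their highest mean CPM in radial-glia-like cells, the neural stem cells of the embryonic cortex (1272 cells in clusters 9 and 16). Another 6 genes peaked in oligodendrocyte-precursor-like cells, 5 in intermediate-progenitor-like cells, 4 in Cajal-Retzius-like cells and 1 each in excitatory- and striatal-projection-neuron-like cells. In the oligodendrocyte-precursor-like class, choroid plexus markers summed to 63150 CPM in HET replicate 1 and 10690 CPM in COP1 KO replicate 2. They were at 31.97 CPM in HET replicate 2 and 32.1 CPM in COP1 KO replicate 1. Their part in the levels of that class was not tested. For 28 of the 32 genes, the libraries of the highest class overlapped those of the next class, so that the first place is not separated from the second. The 4 without overlap were Lrp8, Npc2 and Abcg1, highest in intermediate-progenitor-like cells, and Insig2, highest in striatal-projection-neuron-like cells. Classes are clusters of the same cells, so no test was made between them. How many of all genes were highest in each class was not counted.

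**Figure D1:**
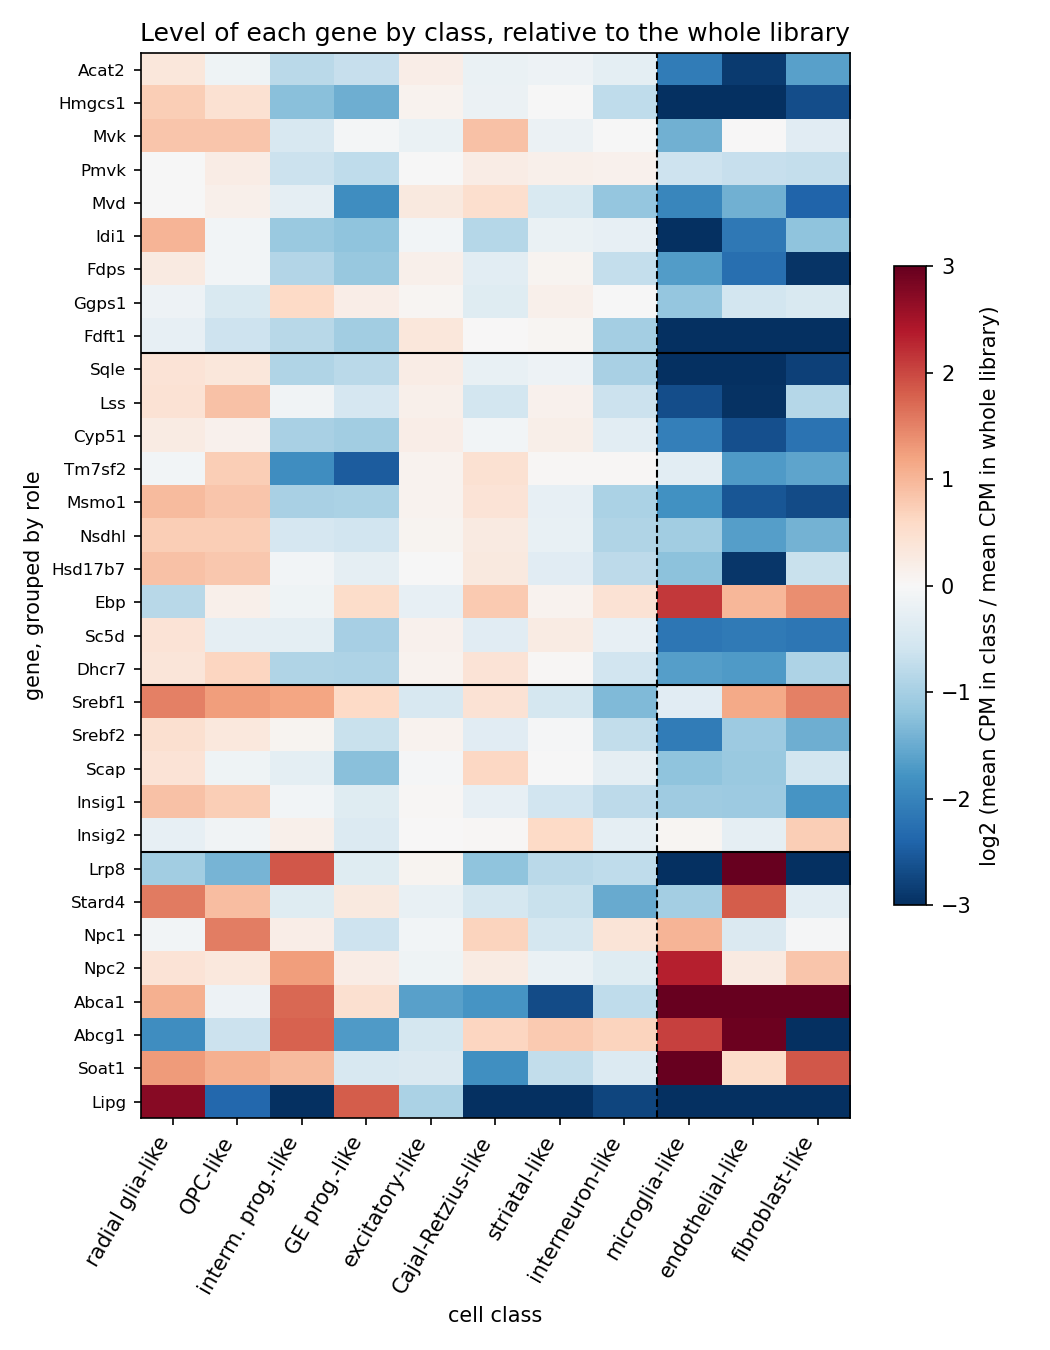
Colour gives the log2 ratio of a gene's mean CPM over 4 libraries in a class to its mean in the whole library, capped at 3 in either direction (a class listed at 0 is drawn at the lower cap). Rows are the 32 genes grouped by role, from mevalonate enzymes at the top to transport genes at the bottom; columns to the right of the dashed line are classes too small to test. Most enzymes are red in radial-glia-like cells and blue in the classes on the right.

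Beside excitatory-neuron-like cells, radial-glia-like cells were higher in all 4 libraries for 19 genes and lower in all 4 for 7. The shares of all genes that were higher or lower in this way were not counted. The largest ratio was that of Lipg, endothelial lipase, which releases fatty acids from lipoprotein phospholipids, at 12.7-fold. Abca1, the exporter that loads cholesterol onto apolipoproteins, followed at 6.42-fold, Srebf1 at 3.94-fold, Stard4, a soluble carrier of sterol between membranes, at 3.41-fold and Soat1, which esterifies cholesterol for storage, at 3.29-fold. The 7 genes that were lower were Mvd, Ggps1, Fdft1, Ebp, Insig2, Lrp8 and Abcg1. Fdft1, the squalene synthase that commits carbon to sterols, was thus the enzyme whose mean was highest in excitatory-neuron-like cells, at 219 CPM against 145 CPM in radial-glia-like cells. Its libraries were at 235, 234, 211 and 195 CPM in the former and at 168, 150, 136 and 126 CPM in the latter (HET 1, HET 2, COP1 KO 1 and COP1 KO 2, the order used throughout), which do not overlap.

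Within the radial-glia-like class, the cycling cluster 16 (439 cells, led by genes such as Cdk1 and Ccnb1) was below the non-cycling cluster 9 (833 cells, led by Aldoc and Mt3) in all 4 libraries for 14 of 32 genes and above it for 0. Abca1 had the lowest ratio of the 14, at 0.372, and Tm7sf2, a sterol reductase, had 0.437. The others of the 14 were Hmgcs1, Pmvk, Mvd, Fdps, Ggps1, Sqle, Cyp51, Nsdhl, Dhcr7, Scap, Lrp8 and Npc2. The share of all genes that lay below cluster 9 in this way was not counted, so no trait particular to these genes is shown.

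The transport genes had patterns of their own. Abca1 was at 45.1, 36.9, 54.6 and 70.4 CPM in intermediate-progenitor-like cells, and its mean ranged from there down to 2.44 CPM in striatal-projection-neuron-like cells. Lrp8, the ApoER2 receptor for reelin and apolipoprotein particles, was at 206, 214, 235 and 234 CPM in intermediate-progenitor-like cells, and the mean of the next class, excitatory-neuron-like cells, was 63.8 CPM. Npc2, which hands cholesterol to NPC1 in the lysosome, was at 585, 561, 622 and 632 CPM in intermediate-progenitor-like cells and had a mean of 338 CPM in radial-glia-like cells. Outside the tested classes, endothelial-like cells (63 in all, 9 of them in COP1 KO replicate 2) had Lrp8 at 560, 405, 378 and 575 CPM from 608 counts, and Abca1 at a mean of 315 CPM from 400 counts. Microglia-like cells (86) had Npc2 at a mean of 1280 CPM from 769 counts and Hmgcs1 at a mean of 56.8 CPM from 34 counts. Lipg was listed at 0 in the microglia-, endothelial-, fibroblast- and mural-like classes.

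The genotype comparison over whole libraries asks whether the genes differed by genotype in sums over all kept cells, which were not cortex alone. None of the 32 genes passed the threshold, an adjusted p of 0.05 in edgeR's quasi-likelihood test; 0.00589% of the 16978 genes tested passed in either direction. At an unadjusted p below 0.05 in edgeR the count was 9 of 32, against 10.5% of all genes. DESeq2 called 1 of the genes, and the share of all genes that it called is not given here. The log2 change was below 0 for 28 of 32 genes, against 49.3% of all genes, with a median of −0.10 against 0.003. Both COP1 KO libraries were below both HET libraries for 21 of 32 genes, against 26.4% of all genes, and above for 3 (Lrp8, Npc2 and Soat1), against 19.3%. In sums over all cells, fewer cells of a type and less RNA per cell cannot be told apart. Without COP1 KO replicate 2, 6 of the genes were called, but 7.07% of all genes (1235 of 17474) were called in that fit, so calls rose across the whole table.

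All 19 enzymes had a log2 change below 0 in the whole libraries, with a range from −0.57 (Idi1) to −0.02 (Ebp). Their summed level was 2149 and 2097 CPM in HET against 1787 and 1988 CPM in COP1 KO, and the lowest value was that of COP1 KO replicate 1. That library also stood apart for Msmo1, the sterol C4-methyl oxidase, at 127 CPM where the other libraries were at 195, 192 and 188 CPM. Srebf2 was at 66.0, 67.1, 42.5 and 55.6 CPM, with COP1 KO replicate 1 again the lowest, and had a log2 change of −0.42 with an SE of 0.119 (adjusted p = 0.377 in edgeR). Without COP1 KO replicate 2 its change was −0.60 with an adjusted p of 0.00117, and without COP1 KO replicate 1 it was −0.26 with an adjusted p of 0.202 (edgeR). Srebf1 was at 16.9, 17.6, 12.7 and 12.8 CPM and differed by −0.41 (SE 0.0905; edgeR adjusted p = 0.281), with groups that did not overlap.

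**Figure D2:**
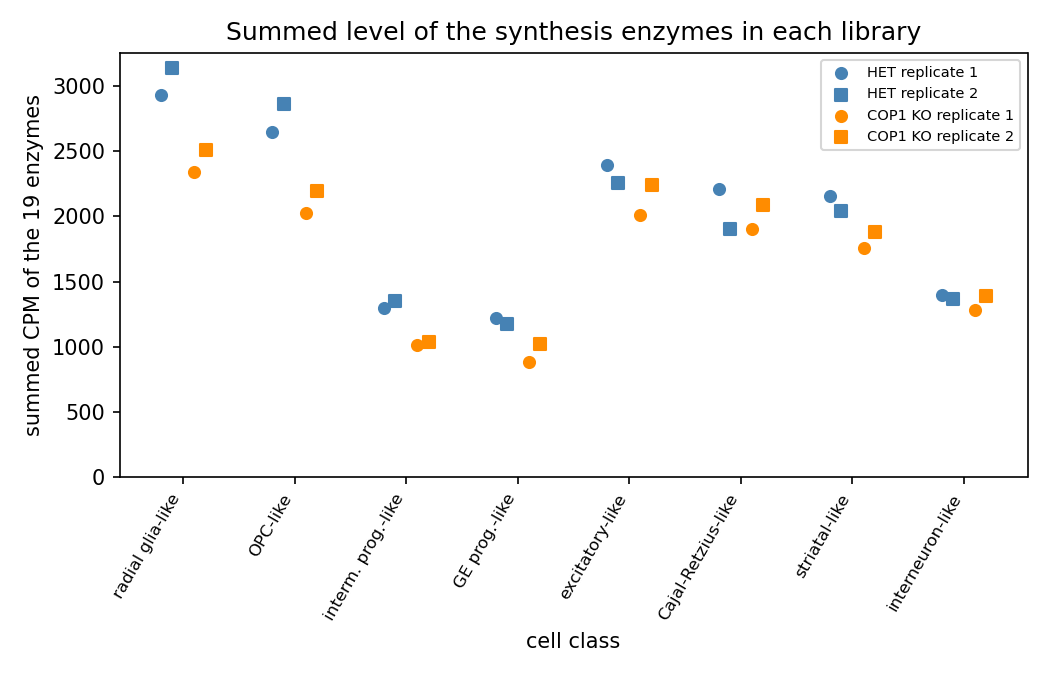
Each point is the summed CPM of the 19 synthesis enzymes in 1 library, by class, in blue for HET and orange for COP1 KO. In radial-glia-like cells the HET libraries, at 2931 and 3141 CPM, lie above the COP1 KO libraries, at 2338 and 2513 CPM; in the cortical-interneuron-like class the libraries of the genotypes overlap.

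In radial-glia-like cells, 3 of 31 genes tested fell in COP1 KO and 0 rose (edgeR adjusted p below 0.05); 0.922% of the 11603 genes tested were called lower there, 2.13% higher and 3.05% in either direction. They were Lipg, Srebf1 and Stard4. Abcg1 did not pass the filter on low counts, with 6 to 10 counts per library. The change was below 0 for 25 of 31 genes, against 50.3% of all genes, with a median of −0.29 against −0.002. After thinning each cell to 2000 counts the median was −0.16, with 21 of 27 genes tested below 0. Both COP1 KO libraries were below both HET libraries for 19 of 31, against 27.4% of all genes. The summed counts behind these values were 1934856 to 2341591 per library.

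Lipg had the largest change of the genes. HET replicates 1 and 2 had 43.9 and 51.3 CPM and COP1 KO replicates 1 and 2 had 9.42 and 12.4 CPM, from 85, 117, 21 and 29 counts. Both COP1 KO libraries were far below both HET libraries. On the log2 scale, Lipg fell by 2.08 with an SE of 0.214 (adjusted p = 0.000932 in edgeR). It remained past the threshold in all 15 alternative settings tried, with changes between −2.27 and −1.92. After thinning each cell to 2000 counts, 29 of 276 cells (10.5%, exact binomial 95% interval 7.15% to 14.7%) and 29 of 291 cells (9.97%, 6.78% to 14.0%) held a Lipg molecule in HET. The COP1 KO values were 10 of 376 cells (2.66%, 1.28% to 4.84%) and 4 of 327 cells (1.22%, 0.334% to 3.10%). In excitatory-neuron-like cells, a class where the gene was low, the thinned share was 0.558%, 0.307%, 0.17% and 0.332%. In COP1 KO replicate 1, 376 of 378 radial-glia-like cells were deep enough to thin. The median depth before thinning was 5967, 6760, 5256 and 5920 counts in radial-glia-like cells and 5862, 6382, 4917 and 5893 in excitatory-neuron-like cells. These intervals cover counting error only.

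Srebf1, which encodes the SREBP-1 factors of fatty acid and sterol genes, was at 56.3 and 52.2 CPM in HET and 31.9 and 29.9 CPM in COP1 KO. The libraries of a genotype lay close together, and the genotypes did not overlap. On the log2 scale, Srebf1 fell by 0.77 with an SE of 0.160 (adjusted p = 0.0347 in edgeR). Stard4 was at 70.8 and 73.2 CPM in HET and 46.7 and 39.3 CPM in COP1 KO, again with no overlap. Stard4 fell by 0.70 with an SE of 0.152 (adjusted p = 0.0416 in edgeR). Each of these calls was past the threshold in 7 of 15 alternative settings. Without HET replicate 1 the adjusted p was 0.185 for Srebf1 and 0.146 for Stard4, and without HET replicate 2 it was 0.127 and 0.192. With DESeq2 the adjusted p was 0.432 for Srebf1 and 0.374 for Stard4. Leaving out HET replicate 1 or 2 left 1 of 31 genes called, where 1.42% and 1.46% of all genes were called. Without COP1 KO replicate 2 the number was 7, and the share of all genes rose to 8.58%.

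Of the other control genes, none was called in this class. Srebf2, whose product favours the cholesterol enzymes, was at 83.7, 101, 63.3 and 73.0 CPM (log2 change −0.40, SE 0.137; edgeR adjusted p = 0.198). After thinning, its change was −0.15, and without HET replicate 2 it was −0.25. Scap was at 41.9, 48.7, 33.6 and 37.2 CPM (−0.31; edgeR adjusted p = 0.435). Insig1, itself a target of SREBP, was at 96.7, 83.7, 65.0 and 79.4 CPM (−0.27; edgeR adjusted p = 0.396). For these genes both COP1 KO libraries were below both HET libraries, but the changes did not pass the test. Insig2 was at 49.6, 52.2, 50.2 and 49.1 CPM, with a log2 change of 0.009 and overlapping groups.

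Among the enzymes, 17 of 19 had a change below 0 in radial-glia-like cells, and none was called; 10 had an unadjusted p below 0.05 (14.7% of all genes did) and DESeq2's single call in this class was Lipg. The enzymes grouped from acetyl-CoA to squalene were all below 0, from −1.45 (Idi1) to −0.02 (Pmvk). Idi1, the isopentenyl diphosphate isomerase, was at 7.75, 9.64, 3.14 and 2.99 CPM from only 15, 22, 7 and 7 counts (SE 0.410; edgeR adjusted p = 0.117). Hmgcs1, the HMG-CoA synthase, was at 791, 951, 646 and 725 CPM (−0.30, SE 0.101; edgeR adjusted p = 0.189). Acat2, the cytosolic acetyl-CoA acetyltransferase of the first step, was at 375, 387, 291 and 306 CPM (−0.31, SE 0.0769; edgeR adjusted p = 0.0764). Acat2 and Hmgcs1 had no overlap between genotypes.

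Among the sterol ring enzymes, Hsd17b7, a 3-ketosteroid reductase, was at 38.8, 49.1, 26.9 and 30.8 CPM (−0.57, SE 0.185; edgeR adjusted p = 0.177). After thinning, the change of Hsd17b7 was −0.11. Msmo1 was at 376, 413, 227 and 329 CPM (−0.46, SE 0.138; edgeR adjusted p = 0.139), with COP1 KO replicate 1 the lowest, as over whole libraries. The genotypes did not overlap for either gene. Lss, the lanosterol synthase, changed by −0.53 and Cyp51, which removes the C14 methyl group of lanosterol, by −0.29, neither past the threshold. Tm7sf2 (0.35) and Ebp (0.22) were the 2 enzymes with a positive log2 change, from 17 to 38 counts per library. Of the 8 transport genes, 7 were tested, and besides Lipg and Stard4 the values ran from −0.32 (Abca1) to 0.15 (Npc2), which did not pass.

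**Figure D3:**
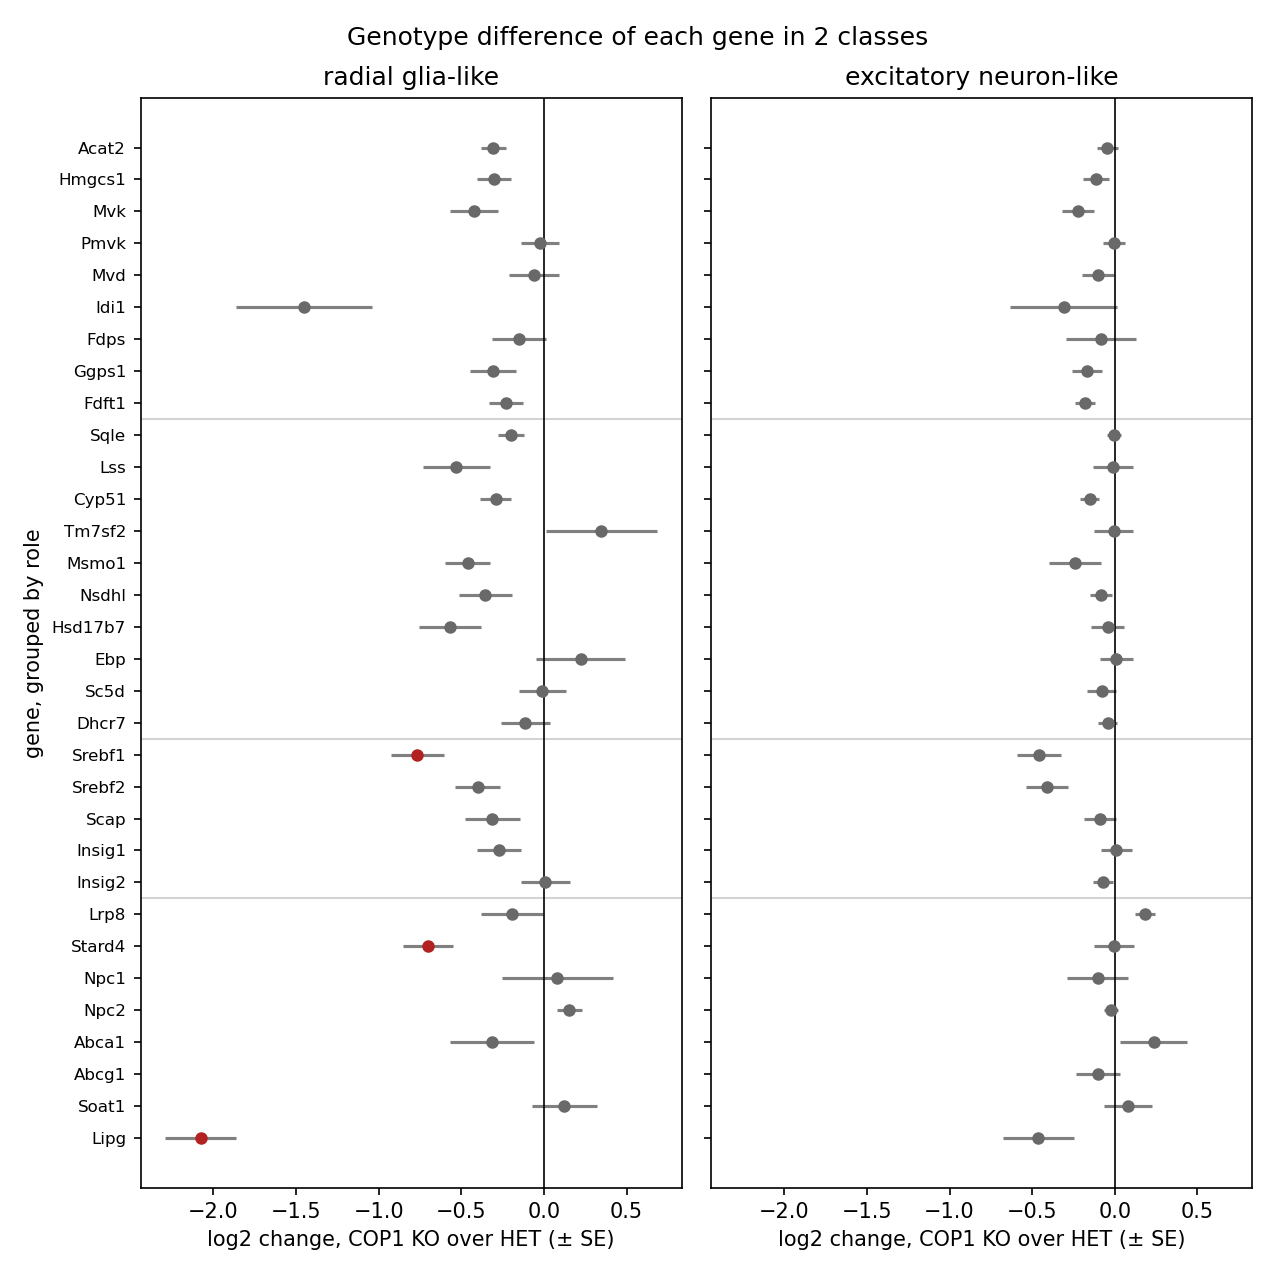
Points give the log2 change of COP1 KO over HET and bars its SE in radial-glia-like cells (left) and excitatory-neuron-like cells (right), for each gene that passed the filter, grouped by role. Red points passed an adjusted p of 0.05 in edgeR: Lipg, Srebf1 and Stard4 on the left, and none on the right.

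The 2 radial-glia-like clusters were also tested one by one. Cluster 9 held 165, 181, 267 and 220 cells and cluster 16 held 111, 110, 111 and 107 cells, so the class mixed them in different shares by library. The part of this mix in the class-level changes was not tested. In cluster 9, 1 of 30 genes tested was called, Lipg (−2.10), where 2.31% of all genes were called. In cluster 16, 2 of 29 were called, Lipg (−2.02) and Stard4 (−0.94), where 2.03% of all genes were called. In cluster 9 Stard4 was at 55.1, 61.8, 49.6 and 35.0 CPM (−0.42; edgeR adjusted p = 0.503), and in cluster 16 at 84.7, 86.1, 42.0 and 44.6 CPM (edgeR adjusted p = 0.0196). The difference between the clusters was not tested. Srebf1 was below 0 in both (−0.73 and −0.80) and called in neither.

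Markers of other cells moved with some of these libraries. In radial-glia-like sums the 8 erythroid markers together stood at 178, 152, 2505 and 179 CPM, so COP1 KO replicate 1 alone was high, and the choroid plexus markers at 42.4, 29.8, 32.3 and 210 CPM, with COP1 KO replicate 2 alone high; 2 of 6 choroid markers were at 0 in all libraries. Of the class's own 16 radial glia markers, 4 fell (Pax6, Hes1, Fabp7 and Aldoc) and 2 rose (Vim and Dbi). Fabp7, a fatty acid binding protein of radial glia, was at 9508, 9840, 7114 and 7041 CPM. The oligodendrocyte precursor markers summed to 202, 212, 260 and 265 CPM, with 2 of the 4 tested higher (Olig1 and Olig2) and 2 of 10 at 0 in all libraries. Of the 10 intermediate progenitor markers, Neurog1 and Neurog2 fell and Tagln2 rose, at 140, 155, 556 and 574 CPM. Of the cortical interneuron markers 2 of 11 tested rose (Dlx5 and Nrxn3), of the excitatory neuron markers 1 of 10 (Mef2c) and of the mural markers 1 of 4 (Rgs5). Of the ganglionic eminence progenitor markers, Top2a fell and Olig2, which is also on this list, rose. None of the 12 microglia markers passed the filter, and they summed to 7.18 to 12.9 CPM. The 20 genes of the G2 and M phase list were at 6612, 5940, 4399 and 5018 CPM in sum, and 4 of 20 fell, with 20 of 20 below 0. The dissociation response list was at 3005, 2977, 2207 and 1991 CPM. Jun, a gene of that list whose protein is a known COP1 substrate, was at 1625, 1532, 858 and 748 CPM. The mitochondrial list was at 10940, 11180, 12990 and 12380 CPM. Their part in the changes of the sterol genes was not tested.

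Genes of neighbouring pathways were mostly not called in radial-glia-like cells. Of fatty acid synthesis and desaturation genes, 0 of 13 were called (edgeR; 2 at an unadjusted p below 0.05), with a median change of 0.06, and the largest changes were those of Thrsp (0.61) and Fads2 (0.47). Other SREBP processing and degradation genes had 0 of 11 called and 0 at an unadjusted p below 0.05, and a median of 0.02, with Syvn1 (0.52) and Sec24a (0.28) the largest. Oxysterol and LXR genes had 0 of 8 called and 2 at an unadjusted p below 0.05, with Cyp46a1, the cholesterol 24-hydroxylase, at −0.74 and Abcg4 at 0.52. Isoprenoid-using enzymes had 0 of 13 called and 2 at an unadjusted p below 0.05, with 11 below 0, a median of −0.12 and Icmt at −1.24 and Rabggtb at −0.30. Among other sterol transport genes and lipoprotein receptors, 1 of 17 rose. It was Clu, the apolipoprotein clusterin, at 199, 242, 326 and 334 CPM (0.62, SE 0.0991; edgeR adjusted p = 0.0104).

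No gene of the 32 was called in the other 7 classes. In excitatory-neuron-like cells 0 of 32 were called (0% of all genes were), 5 had an unadjusted p below 0.05 (9.19% of all genes) and DESeq2 called 0. Srebf1 was at 11.8, 13.5, 8.92 and 9.07 CPM (−0.46; edgeR adjusted p = 0.504) and Srebf2 at 72.6, 70.7, 45.2 and 60.5 CPM (−0.41; edgeR adjusted p = 0.522), neither overlapping. Without COP1 KO replicate 2, 4 of the genes and 6.41% of all genes were called in this class. The count was 0 of 27 in ganglionic-eminence-progenitor-like cells (0.271% of all genes), 0 of 26 in intermediate-progenitor-like cells (0.304%), 0 of 28 in oligodendrocyte-precursor-like cells (0.159%), 0 of 29 in striatal-projection-neuron-like cells (0.00971%), 0 of 29 in cortical-interneuron-like cells (0.0101%) and 0 of 23 in Cajal-Retzius-like cells (0.0135%), all with edgeR. At an unadjusted p below 0.05 the counts in the same order were 4, 6, 3, 4, 0 and 0, where 7.02%, 8.51%, 10.1%, 6.47%, 6.14% and 6.39% of all genes passed, and DESeq2 called 0 in each. Leaving out COP1 KO replicate 2 gave 2 of 27 in ganglionic-eminence-progenitor-like cells, 1 of 29 in striatal-projection-neuron-like and 1 of 25 in Cajal-Retzius-like cells, and in those fits 2.67%, 3.44% and 1.70% of all genes were called. The 5 unnamed clusters tested had 0 called each, with 0.129%, 0.0201%, 0.242%, 0.506% and 0.162% of all genes called in clusters 0, 11, 12, 20 and 22, and DESeq2 called 0 in each. At an unadjusted p below 0.05 they had 1, 3, 2, 1 and 2, where 8.54%, 5.66%, 7.62%, 10.4% and 6.21% of all genes passed. Without COP1 KO replicate 2 the count was 1 of 31, 2 of 28 and 1 of 24 in clusters 0, 11 and 22, where 5.90%, 2.46% and 1.36% of all genes were called. Without HET replicate 2 it was 1 of 23 in cluster 22, where 0.541% of all genes were called.

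Enzyme changes were mostly below 0 in several of these classes, without passing the test. Their median change was −0.39 in oligodendrocyte-precursor-like cells (16 of 18 below 0), −0.23 in intermediate-progenitor-like cells (14 of 16), −0.23 in striatal-projection-neuron-like cells (16 of 18) and −0.17 in ganglionic-eminence-progenitor-like cells (12 of 17). In excitatory-neuron-like cells it was −0.08 (18 of 19), in cortical-interneuron-like cells −0.02 (9 of 18) and in Cajal-Retzius-like cells 0.07 (4 of 16). Of all genes tested, 50.7%, 50.5%, 49.4%, 49.8%, 49.6%, 49.1% and 50.0% were below 0 in these 7 classes, in the order given. In intermediate-progenitor-like cells the summed enzyme level was 1298 and 1351 CPM in HET against 1017 and 1039 CPM in COP1 KO, with no overlap. In oligodendrocyte-precursor-like cells it was 2651 and 2861 against 2023 and 2192 CPM. Other lists differed between the same libraries. The 20 genes of the G2 and M phase list summed to 1978, 2890, 4833 and 5362 CPM in oligodendrocyte-precursor-like cells. Both COP1 KO libraries were above both HET libraries for 20 of 20, against 22.43% of all genes (18.14% were below). Their median change was 1.07, with 1 called (Ube2c). The dissociation response list was at 3718, 3325, 2005 and 2693 CPM, with 9 of 9 tested below 0. Choroid plexus markers were at 63150, 31.97, 32.1 and 10690 CPM, so HET replicate 1 stood far above the rest, and erythroid markers at 221, 208, 4806 and 196 CPM. Fibroblast markers, whose list shares Pdgfra with that of oligodendrocyte precursors, were at 359, 374, 116 and 183 CPM. The class's own markers summed to 2934, 3126, 2725 and 2915 CPM, with a median change of −0.71 over the 9 tested and 0 called (edgeR; 5 at an unadjusted p below 0.05). The part of these lists in the enzyme levels was not tested.

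Lipg in ganglionic-eminence-progenitor-like cells was at 23.7, 22.9, 7.88 and 8.36 CPM (log2 change −1.46, SE 0.441; edgeR adjusted p = 0.376), with no overlap between genotypes. In the same class the erythroid markers summed to 214, 138, 3195 and 3869 CPM, with 4 of 4 tested higher in COP1 KO and a median change of 4.98. The mitochondrial list was at 10890, 10710, 12870 and 12090 CPM. Both COP1 KO libraries were above both HET libraries for 7 of its 9 genes tested, against 15.07% of all genes. Of 14 radial glia markers tested there, 1 fell (Hes5) and 1 rose (Slc1a3). The part of these in the level of Lipg was not tested. Srebf1 in striatal-projection-neuron-like cells was at 11.1, 18.5, 5.35 and 6.66 CPM (−1.26; edgeR adjusted p = 0.634), and in intermediate-progenitor-like cells at 39.7, 44.3, 26.4 and 24.9 CPM (−0.68; edgeR adjusted p = 0.588). Stard4 in ganglionic-eminence-progenitor-like cells was at 25.6, 26.8, 22.3 and 21.5 CPM (−0.22; edgeR adjusted p = 0.942), and in oligodendrocyte-precursor-like cells at 34.5, 32.0, 48.2 and 33.4 CPM with overlapping groups.

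**Figure D4:**
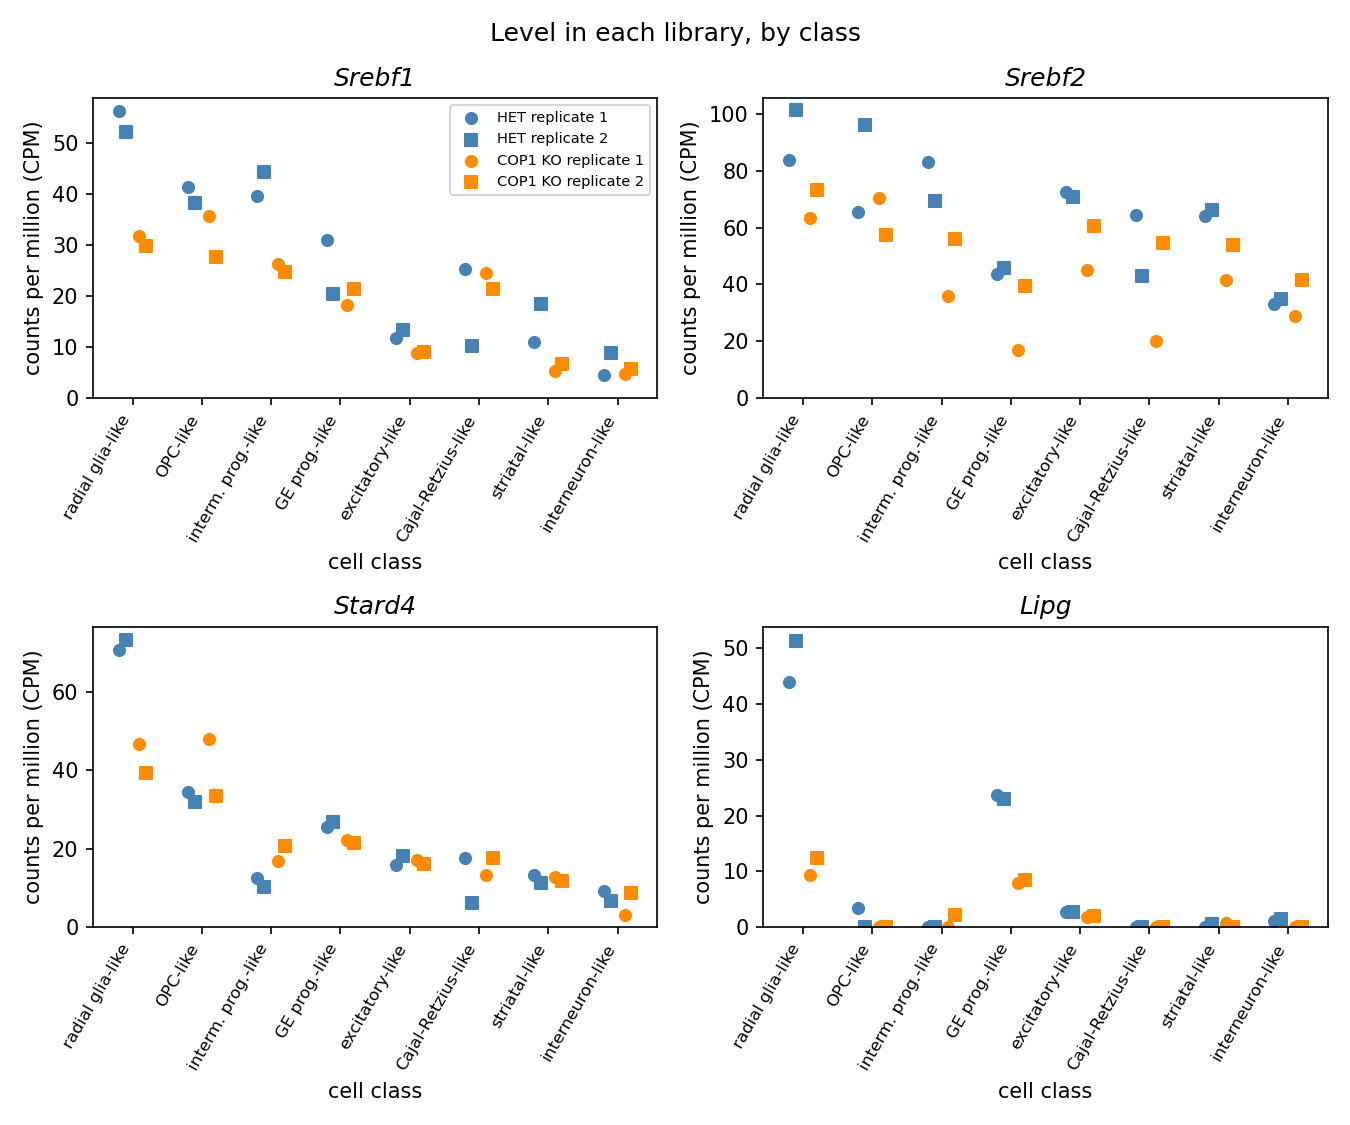
Each point is the CPM of Srebf1, Srebf2, Stard4 or Lipg in 1 library, by class, in blue for HET and orange for COP1 KO. For Srebf1, Stard4 and Lipg the HET libraries of the radial-glia-like class are the highest points; for Srebf2 the genotypes overlap in the oligodendrocyte-precursor-, Cajal-Retzius- and cortical-interneuron-like classes.

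An interaction of genotype and class, fitted with each library as a block, compared the genotype change of radial-glia-like cells with that of excitatory-neuron-like cells. It passed for 2 of 32 genes, Lipg and Stard4, both with a lower change in radial-glia-like cells; 0.804% of 14805 genes were called in that direction, 1.66% in the other and 2.47% in either. The difference of the log2 changes was −1.61 for Lipg (SE 0.388; edgeR adjusted p = 0.00751). In excitatory-neuron-like cells Lipg was at 2.77, 2.63, 1.77 and 2.06 CPM, from 23 to 39 counts. For Stard4 the difference was −0.69 (SE 0.179; edgeR adjusted p = 0.0170), and its excitatory-neuron-like level was 15.8, 18.3, 17.1 and 16.2 CPM, with overlapping groups. For Srebf1 (−0.30, adjusted p = 0.678) and Srebf2 (0.01, adjusted p = 0.996) edgeR called no difference between the classes. Neither call for Lipg nor for Stard4 held without HET replicate 2, without COP1 KO replicate 1 or without COP1 KO replicate 2, and that for Stard4 also not without HET replicate 1 (adjusted p = 0.25).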

How the data were processed

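Single-cell RNA of 4 mouse cortex libraries was analysed from count tables deposited by the authors, which hold raw whole-number counts per gene and barcode. Per the submitters' processing notes, the aligner GSNAP and the build GRCm38 (mm10) were used. The counter, the annotation, the use of strand and molecular identifiers and how cells were called were not given in the sources used here. Srebf1, Srebf2, Fdft1, Lss, Tm7sf2, Insig1, Lrp8, Npc1 and Mvd overlap other RefSeq genes, so their reads cannot be told apart from those of the partner without strand.

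Of 36528 gene rows, 367 identical copies (1.34% of counts) were removed, and 3065 rows named only by a number held 1.69% of counts. Of 19237 barcodes, those with under 500 genes (222), over 10% mitochondrial counts (1) or a doublet score over 0.25 (228) were removed. Clusters (scanpy 1.11.5, 2000 variable genes without the 32 genes, 30 components, 15 neighbours, Leiden resolution 1.0) were named from marker lists with thresholds set after seeing the data. Counts were summed per library and class and tested with edgeR 4.0.16 (TMM, filterByExpr, quasi-likelihood F-test, Benjamini-Hochberg over all genes tested, R 4.3.3). The edgeR fit of genotype was tried on simulated sums modelled on whole libraries and on radial-glia-like cells. An SE is the size of the log2 change divided by the root of the F statistic. An exact permutation of 2 against 2 libraries cannot go below p = 0.333, so p-values rest on spread pooled over genes. Alternatives were DESeq2 1.42.0, no TMM, no low-count filter, the sex of each library from Xist and Y-linked counts, other cell filters, thinning to 2000 counts, other clusterings and leaving out each library. Genes given with every library value were those called in any comparison, the 5 largest changes in radial-glia-like cells and the SREBP control genes; further ones were chosen after their values were seen. The members and lists were chosen with earlier results of these data known.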

Additional observations from a re-analysis of the deposited data

Results flagged for a closer look

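For 2 genes the genotype change in radial-glia-like cells was not the same as in the excitatory class, by the interaction term of class and genotype in edgeR, fitted with libraries as blocks. For Stard4 the log2 change in radial-glia-like cells minus that in excitatory-neuron-like cells was −0.69 (adjusted p = 0.0170), and for Lipg it was −1.61 (adjusted p = 0.00751). Stard4 remained past the threshold in 4 of 10 alternative settings, with adjusted p from 0.0077 to 1, and Lipg in 6 of 10, with adjusted p from 0.00193 to 0.401.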

How the results depend on the processing

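No paired analysis was possible because the labels give no replicate numbers, and the numbers used here follow the order of the samples. None of the log2 changes of Srebf1, Stard4, Lipg, Idi1, Hsd17b7 and Srebf2 in radial-glia-like cells, of Srebf2 in whole libraries or of the class differences of Lipg and Stard4 changed sign under a setting run for it. Other genes did: up to 5 of 32 in whole libraries, up to 5 of 31 in radial-glia-like cells and up to 9 in excitatory-neuron-like cells had the other sign under some setting. The median change over the genes turned from 0.04 to −0.06 in Cajal-Retzius-like cells without HET replicate 2. Leaving out COP1 KO replicate 1 turned it from −0.02 to 0.004 in cortical-interneuron-like cells, from −0.11 to 0.04 in cluster 12 and from −0.16 to 0.02 in cluster 20. The count below 0 in whole libraries, 28, was 23 without COP1 KO replicate 1 or after thinning. In radial-glia-like cells the count of genes called, 3, was 7 without the filter on low counts and 1 with DESeq2, with sex as a covariate, after thinning to 2000 counts, at clustering resolution 2.0 or in cluster 9 alone; leaving out 1 library gave 1 to 7. In whole libraries the count of 0 was 1 with DESeq2 and 0 to 6 with 1 library left out. With 1 library left out the counts were 0 to 1 in Cajal-Retzius-like cells, 0 to 4 in excitatory-neuron-like, 0 to 2 in ganglionic-eminence-progenitor-like and 0 to 1 in striatal-projection-neuron-like cells, 0 to 1 in cluster 0, 0 to 2 in cluster 11 and 0 to 1 in cluster 22. In ganglionic-eminence-progenitor-like cells it was 1 without the filter and 1 with sex, in cluster 11 it was 2 without the filter, and in cluster 22 it was 1 with sex. In cluster 9 the count of 1 became 2 with library totals, without the filter or with sex, and 1 to 3 with 1 library left out; in cluster 16 the count of 2 became 5 without the filter, 1 with DESeq2 and 0 to 4 with 1 library left out. These alternatives within the clusters, and thinning of whole libraries, were chosen after seeing the data. The class difference, 2 genes, became 0 with DESeq2, 1 among cells with at least 1000 genes and 0 to 2 with 1 library left out. An arm left with 1 library is assumed to vary like the other. Where no share of all genes called is given for a setting, a different count cannot be told from a shift across the whole table. Without thinning, the mean shares of radial-glia-like cells with a molecule were 29.95% in HET and 17.66% in COP1 KO for Srebf1 (thinned 10.07% and 6.54%), 36.5% and 22.4% for Stard4 (12.85% and 8.32%), and 24.97% and 5.77% for Lipg (10.24% and 1.94%). The causes of these shifts were not tested. Depth limits Idi1, Lipg outside progenitors and the classes with few cells.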
